A study of Mus musculus with 24 samples.

Results

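Beta cells of the mouse pancreatic islet were compared between midday and midnight. Midday was represented by the beta cell libraries of zeitgeber times (ZT, hours counted by convention from lights on) ZT4 and ZT8, and midnight by those of ZT16 and ZT20. The comparison took every such library that the labels name, 4 at midday and 4 at midnight, out of 24 libraries in the series, and all 14027 genes of the deposited table. The remaining libraries were beta cells at ZT0 and ZT12 and alpha cells, the glucagon-secreting cells of the islet, at the same 6 times.

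All groups came from a strain labelled as a triple reporter mouse, with islets isolated at the stated time and total RNA taken from the beta cells. The labels name neither the reporters and their promoters nor the age, sex, diet or number of mice behind a library. Nothing in them states that the paired libraries at each time are from different animals. The p-values below therefore reflect the scatter of these libraries alone, and it may be technical scatter. Levels are given in RPKM, a read count divided by gene length and by library size. Differences are on the deposited log2 RPKM scale, midday minus midnight, with the standard error (SE) of the fit.

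The cells carried the transcripts of beta cells. Ins1 and Ins2, the insulin genes, took 16.4% to 26% of the reads of the 8 libraries, and Gcg, the glucagon gene of alpha cells, took at most 0.042% in 7 of them and 0.281% in replicate 1 of ZT4. The libraries held 9383552 to 11818032 reads, so depth was similar across the groups. Markers of other cells are described with the last results.

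The circadian clock is a feedback loop of transcription. CLOCK, or its relative NPAS2, pairs with BMAL1 (gene Arntl) and activates the Per and Cry genes, the nuclear receptors Nr1d1 and Nr1d2 (REV-ERB alpha and beta) and the output factors Dbp, Tef and Hlf. PER and CRY proteins inhibit that pair, while the REV-ERBs repress and the RORs activate Arntl, Npas2, Cry1 and Nfil3. Beta cells take up glucose, turn its oxidation into electrical activity and calcium entry, and release insulin from granules that are loaded through the endoplasmic reticulum. Mice eat mostly at night, so midday falls in the resting phase of a nocturnal animal.

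Between midday and midnight, 759 genes were higher at midday (5.41% of all genes tested) and 905 were higher at midnight (6.45%). A gene was called when its adjusted p in limma was under 0.05, with the Benjamini-Hochberg adjustment over all 14027 genes. The differences were mostly small. Of the called genes 89 were at least 2-fold higher at midday (0.634% of all genes) and 170 at midnight (1.21%), and the median fold was 1.53 among those higher at midday and 1.54 among those higher at midnight. In 1423 of the 1664 called genes the 4 midday and the 4 midnight libraries did not overlap. Over all genes 20.1% did not overlap, 9.21% with midday higher and 10.9% with midnight higher, and 4724 genes had an unadjusted p under 0.05.

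These counts moved with single libraries. Without replicate 1 of ZT8 they were 157 at midday and 199 at midnight, without replicate 2 of ZT8 252 and 303, and without replicate 2 of ZT4 191 and 235. Leaving out replicate 1 of ZT16 gave 175 and 151, replicate 2 of ZT16 110 and 99, replicate 1 of ZT20 380 and 365, and replicate 2 of ZT20 177 and 187. Without replicate 1 of ZT4, the library with the most glucagon transcript, the counts were 985 and 1249. No called gene was called in the opposite direction under any of these. Of all called genes, 12.5% remained called without replicate 2 of ZT16 and 86.1% without replicate 1 of ZT4. Leaving out any other single library kept 19.3% to 42.5%. Among 124 called genes named by rule, 33 remained called without each of the 8 libraries in turn, and 27 remained called under all 20 alternatives. The naming rule takes in the largest called differences, so these 124 do not stand for all called genes.

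Those 27 genes were Acaa2, Ccnd1, Ccnd3, Cirbp, Cpt1a, Creld2, Cry1, Dnajb11, Eif4b, Fh1, Fmo2, Igf1r, Lss, Mt2, Mvd, Nr1d1, Nr1d2, Pde10a, Pde1c, Per2, Prss23, S100a4, Sec23b, Slc25a20, Spon2, Wipi1 and Zdhhc22. They include clock factors and genes of fatty acid oxidation, sterol synthesis, the endoplasmic reticulum and the cell cycle. The 124 were drawn largely from gene lists on such themes, so the themes of the 27 partly follow from the naming rule. For the other 97 a call was lost under at least 1 alternative. Of the 124, 115 and 58 remained called without replicates 1 and 2 of ZT4, 54 and 64 without those of ZT8, 44 and 33 without those of ZT16, and 73 and 49 without those of ZT20. With the nuclear RNA covariate described next 46 remained called.

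A property of the libraries moved with the comparison. Malat1, Neat1 and Meg3, long noncoding RNAs that stay in the nucleus, took 1.16% and 0.381% of the reads at ZT4, 0.422% and 0.706% at ZT8, 1.85% and 1.61% at ZT16, and 0.852% and 1.37% at ZT20. The midnight libraries lay higher except that replicate 1 of ZT4 exceeded replicate 1 of ZT20. The insulin genes took 19.8%, 26%, 24.7% and 23.9% at midday and 16.4%, 16.6%, 22.8% and 17.5% at midnight. With the mean log2 level of the 3 nuclear RNAs as a covariate, an alternative chosen after seeing the data, 199 genes were higher at midday and 309 at midnight, of which 276 were among the 1664. Below, list counts with this covariate follow the counts without it. They are to be read beside all genes, of which 5.41% were called at midday and 6.45% at midnight, and 199 and 309 of 14027 with the covariate. Counts of lists near these shares are description only.

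**Figure D1:**
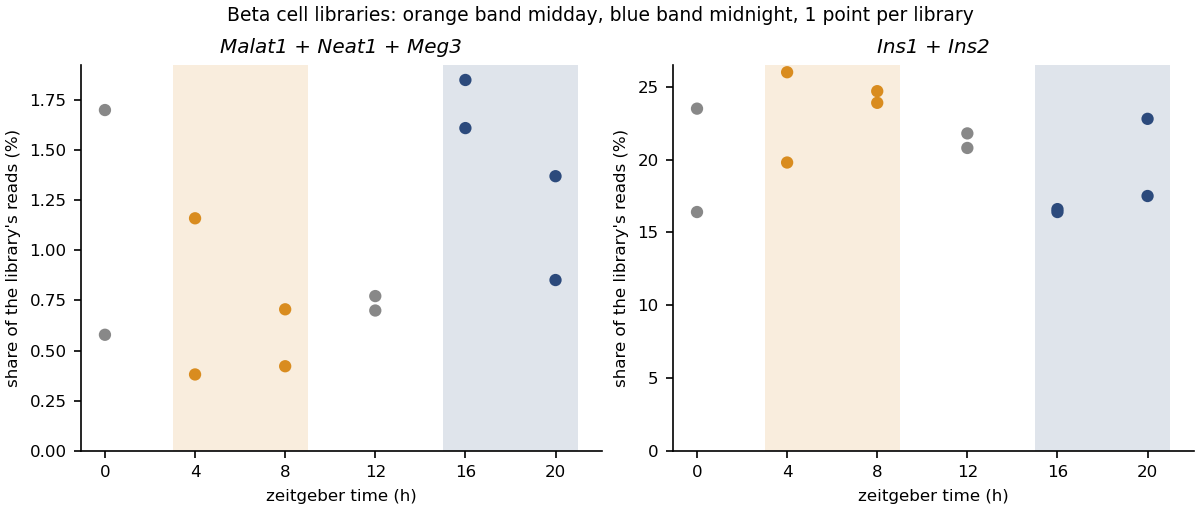
Share of each beta cell library's reads (%, vertical axes from 0) taken by Malat1, Neat1 and Meg3 together (left) and by Ins1 and Ins2 together (right), against zeitgeber time in hours, with 1 point per library. The 2 ZT16 libraries hold the highest shares of nuclear RNA, 1.85% and 1.61%, among the 8 midday and midnight libraries, and low insulin shares of 16.4% and 16.6%.

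Among the 20 core clock genes, 5 were higher at midday and 4 at midnight (4 and 3 with the nuclear RNA covariate). Nr1d1, Nr1d2 and Dbp were higher at midday, and Cry1 and Per2 at midnight. Nr1d1, on chromosome 11 (98767932 to 98775333, minus strand, GRCm38), encodes the heme-binding repressor REV-ERB alpha and had 7.84, 8.05, 12.3 and 10.4 RPKM at midday and 3.1, 2.82, 1.19 and 1.47 RPKM at midnight. No midnight library came near a midday library, and the level was 4.68-fold higher at midday (log2 difference 2.23, SE 0.13, adjusted p = 5.6e-05). It overlaps Thra on the other strand, as Dbp overlaps Sphk2, and the strand setting of the counting is not given in the sources used here.

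Nr1d2, the paralogue of Nr1d1 on chromosome 14, had 26.1, 30.8, 56 and 49.5 RPKM at midday and 22.1, 22.3, 10 and 10.9 RPKM at midnight. It was 2.53-fold higher at midday (adjusted p = 1.1e-04), and most of that lay between ZT8 and ZT20. Dbp, which encodes a PAR bZIP factor activated by CLOCK and BMAL1, had 10.5, 8.23, 39.9 and 31.7 RPKM at midday and 7.77, 6.89, 3.66 and 3.54 RPKM at midnight. The ZT4 and ZT16 libraries of Dbp lay close together, while the ZT8 libraries stood far above the ZT20 libraries, and the mean difference was 3.51-fold (log2 difference 1.81, SE 0.12, adjusted p = 1.1e-04). With midday and midnight fitted as 2 groups of 4, so that the spread between ZT4 and ZT8 counts as error, Dbp was no longer called.

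Cry1, the repressor with the latest peak in the loop, was the gene with the lowest p in the table. It had 3.81, 4.33, 3.36 and 2.91 RPKM at midday and 10.6, 11.8, 15.6 and 13.9 RPKM at midnight. Every midnight library exceeded every midday library, and the level was 3.56-fold higher at midnight (log2 difference -1.83, SE 0.10, adjusted p = 5.6e-05). Per2, a core repressor, had 5.54, 3.81, 6.75 and 7.9 RPKM at midday and 23.7, 22.8, 12.8 and 14.3 RPKM at midnight, with its highest values at ZT16. The difference was 3.05-fold (log2 difference -1.61, SE 0.21, adjusted p = 0.005).

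Rora, which encodes an activating receptor at the elements that REV-ERBs bind, had 9.91, 10.9, 9.69 and 8.98 RPKM at midday and 7.92, 7.7, 8.13 and 8.18 RPKM at midnight. Its groups did not overlap, but the difference was small (1.23-fold higher at midday, adjusted p = 0.046), and its call was lost under 10 of the 20 alternatives.

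Arntl and Npas2, the activators, differed more within a phase than between the phase means. Arntl had 8.88 and 8.91 RPKM at ZT4 but 0.863 and 1.63 RPKM at ZT8, and 3.28 and 3.73 RPKM at ZT16 but 8.85 and 9.55 RPKM at ZT20. The level at ZT4 thus resembled that at ZT20. Its log2 difference was 1.33 between ZT4 and ZT16 and -2.88 between ZT8 and ZT20, and their mean was -0.78 (adjusted p = 0.035). Npas2 had 0.859 and 1.38 RPKM at ZT4, 0.103 and 0.0876 RPKM at ZT8, 0.0678 and 0.0177 RPKM at ZT16, and 0.417 and 0.192 RPKM at ZT20. It had the same pair of signs, with log2 differences of 3.94 and -1.30, at low levels. The calls of Arntl and Npas2 were each lost under 10 of the 20 alternatives.

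Of the core clock genes 11 were not called. Nfil3, a repressor that opposes Dbp at its elements, had 16.6 and 17.6 RPKM at ZT4, 1.05 and 4.04 at ZT8, 7.3 and 10.8 at ZT16, and 16.8 and 19.3 at ZT20 (adjusted p = 0.063). Tef, a relative of Dbp, had 10.1, 7.89, 23.6 and 20.4 RPKM at midday and 15.6, 15.2, 10.2 and 9.83 RPKM at midnight (adjusted p = 0.29). Per1 spanned 3.21 to 8.33 RPKM at midday and 7.97 to 16.4 RPKM at midnight (adjusted p = 0.086), and Clock itself spanned 24.6 to 32.1 and 26.5 to 31.2 RPKM (adjusted p = 0.99). Of the kinases and ligases that act on clock proteins, 1 of 16 was called, at midday (6.2%, against 5.41% of all genes), and 0 with the covariate.

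**Figure D2:**
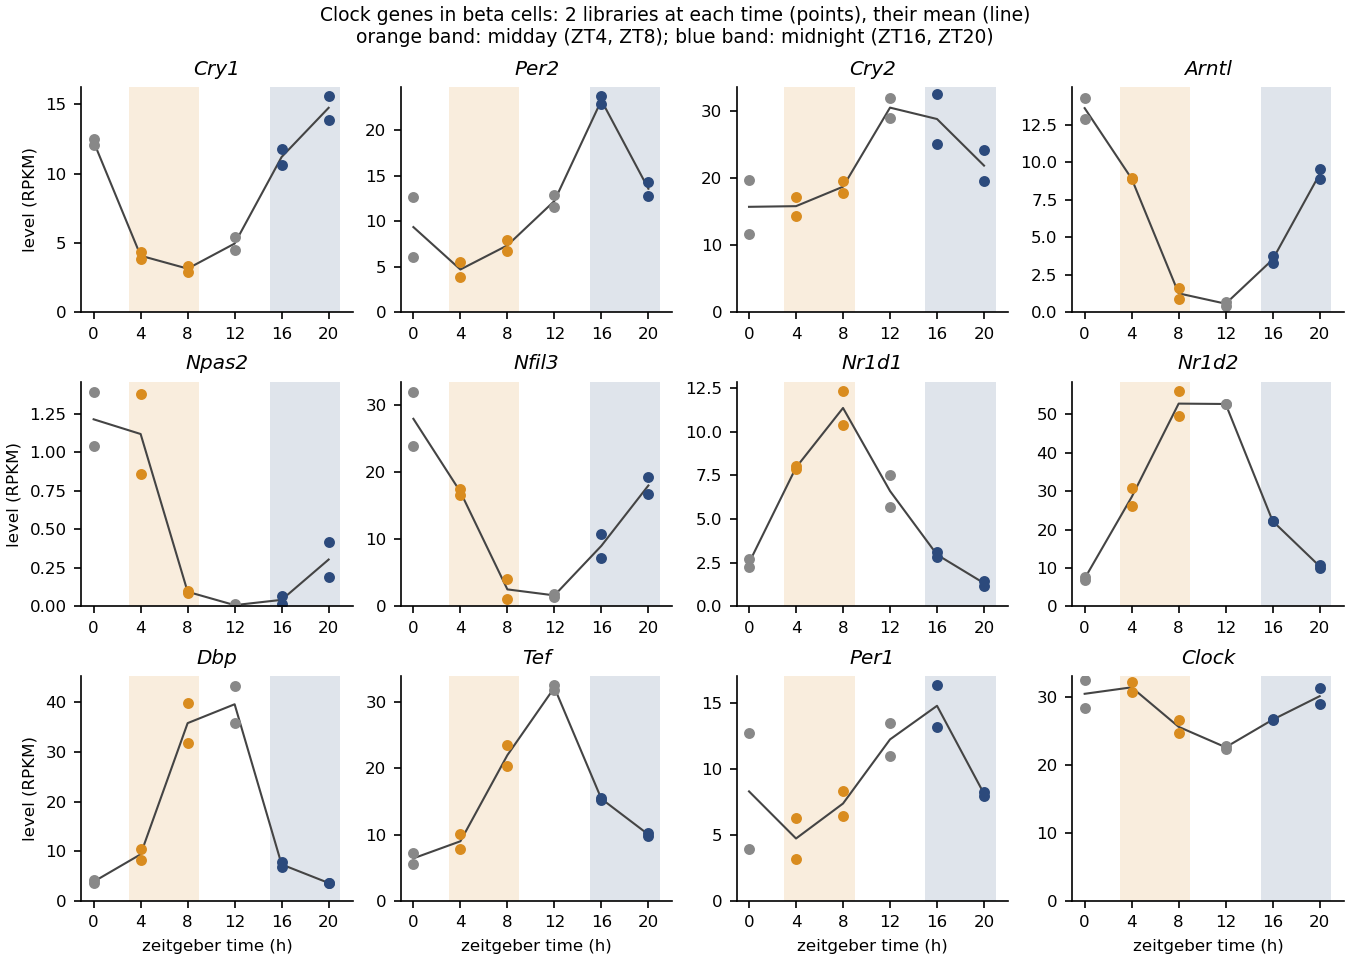
Level in RPKM (vertical axes from 0) of 12 clock genes in beta cells against zeitgeber time in hours, with 2 libraries at each time as points and their mean as a line. Cry1 and Per2 are lower in the orange midday band than in the blue midnight band, Nr1d1 is higher, and Arntl and Npas2 change within each band, from 8.88 and 8.91 RPKM at ZT4 to 0.863 and 1.63 RPKM at ZT8 for Arntl.

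The promoters of 6 clock genes and genes with large differences are shown because CLOCK and BMAL1 bind CACGTG and the RORs and REV-ERBs bind TAGGTCA. Each is the 250 bases before the RefSeq start on GRCm38.p6, 5′ to 3′ on the strand of the gene. They lie at chr10:85185055-85185304 (Cry1, minus), chr11:98775378-98775627 (Nr1d1, minus), chr7:45704997-45705246 (Dbp, plus), chr14:18239107-18239356 (Nr1d2, minus), chr3:90603520-90603769 (S100a4, plus) and chr1:162898759-162899008 (Fmo2, minus). Capitals mark any of the motifs searched, on either strand.
Cry1: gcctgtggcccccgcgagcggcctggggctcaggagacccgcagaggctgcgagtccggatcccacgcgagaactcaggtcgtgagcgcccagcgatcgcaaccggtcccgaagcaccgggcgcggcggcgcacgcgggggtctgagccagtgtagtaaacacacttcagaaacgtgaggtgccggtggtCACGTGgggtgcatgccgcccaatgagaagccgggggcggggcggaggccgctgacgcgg
Nr1d1: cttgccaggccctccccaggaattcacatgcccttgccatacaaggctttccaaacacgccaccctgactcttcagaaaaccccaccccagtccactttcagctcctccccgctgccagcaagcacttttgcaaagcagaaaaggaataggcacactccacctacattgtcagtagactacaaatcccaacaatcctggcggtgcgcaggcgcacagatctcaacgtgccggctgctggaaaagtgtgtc
Dbp: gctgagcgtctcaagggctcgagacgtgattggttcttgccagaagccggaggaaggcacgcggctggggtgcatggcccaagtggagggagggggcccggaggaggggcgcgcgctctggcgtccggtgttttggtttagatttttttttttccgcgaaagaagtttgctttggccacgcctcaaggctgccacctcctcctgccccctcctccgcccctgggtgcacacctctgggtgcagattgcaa
Nr1d2: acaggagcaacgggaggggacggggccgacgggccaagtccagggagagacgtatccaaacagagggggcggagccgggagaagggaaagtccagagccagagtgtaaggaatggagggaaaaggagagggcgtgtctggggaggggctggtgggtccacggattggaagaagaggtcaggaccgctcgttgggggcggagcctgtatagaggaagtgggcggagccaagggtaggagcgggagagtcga
S100a4: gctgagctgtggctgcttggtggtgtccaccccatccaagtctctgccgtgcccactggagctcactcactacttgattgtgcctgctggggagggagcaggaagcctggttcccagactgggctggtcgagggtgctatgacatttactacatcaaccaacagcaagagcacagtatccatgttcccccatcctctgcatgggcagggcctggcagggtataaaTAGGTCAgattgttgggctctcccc
Fmo2: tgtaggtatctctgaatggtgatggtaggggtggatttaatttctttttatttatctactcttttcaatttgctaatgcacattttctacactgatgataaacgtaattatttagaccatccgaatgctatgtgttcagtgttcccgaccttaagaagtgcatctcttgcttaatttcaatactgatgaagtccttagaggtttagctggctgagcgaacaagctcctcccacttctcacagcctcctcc

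The motifs searched were CACGTG (the E-box of CLOCK and BMAL1), the receptor element TAGGTCA, TTATGTAA (bound by the PAR bZIP factors), TGACGTCA (cAMP response), GAANNTTC (heat shock) and the endoplasmic reticulum stress element. The Cry1 promoter held CACGTG at bases -60 to -55 from the start, and the S100a4 promoter held TAGGTCA at bases -25 to -19. None of the 6 motifs stood in the other 4 windows, which says only that these letters are not in these 250 bases. CACGTG was present in 8.53% of 10229 promoters of genes in the table, in 8.58% of 548 promoters of genes higher at midday and in 8.20% of 671 promoters of genes higher at midnight. TAGGTCA was present in 1.57%, 1.82% and 1.04% of them. TTATGTAA was present in 0.43%, 0.36% and 0.30%, TGACGTCA in 2.91%, 2.01% and 3.43%, and GAANNTTC in 4.94%, 4.01% and 3.73%. The endoplasmic reticulum stress element was present in 16 of all the promoters, 1 of those higher at midday and 4 of those higher at midnight.

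Genes of beta cell identity were called in both directions. Of 24, 5 were higher at midday and 2 at midnight, with a median log2 difference of 0.04 against 0.01 over all genes. Slc2a2, the glucose transporter GLUT2, had 433, 528, 510 and 503 RPKM at midday and 213, 209, 332 and 282 RPKM at midnight. Its groups lay apart and the level was 1.94-fold higher at midday (log2 difference 0.95, SE 0.14, adjusted p = 0.007). Slc30a8, the zinc transporter of insulin granules, had 747, 771, 864 and 821 RPKM at midday and 516, 535, 556 and 571 RPKM at midnight (1.47-fold, adjusted p = 0.013).

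G6pc2, the islet glucose-6-phosphatase, had 1710, 1920, 2490 and 2760 RPKM at midday and 1180, 1100, 1540 and 1290 RPKM at midnight (1.72-fold, adjusted p = 0.019). Mafa, an insulin gene activator, ran the other way with 151, 124, 133 and 118 RPKM at midday and 238, 282, 240 and 177 RPKM at midnight (1.76-fold, adjusted p = 0.02). In both genes the groups did not overlap. Foxa2, a pioneer factor, and Trpm5, a cation channel, were 1.43-fold and 1.49-fold higher at midday.

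Pdx1 and Nkx6-1, which maintain the beta cell state, had log2 differences of -0.05 (SE 0.11) and -0.02 (SE 0.11). The secreted products were not called. Ins1 spanned 70100 to 110000 RPKM at midday and 60000 to 91800 RPKM at midnight (1.37-fold higher at midday, adjusted p = 0.19). Ins2 spanned 160000 to 240000 and 130000 to 197000 RPKM (1.38-fold, adjusted p = 0.19), and Iapp, amylin, 26900 to 37800 and 24900 to 32900 RPKM (1.22-fold, adjusted p = 0.32). For all 3 the sign of the difference changed with the nuclear RNA covariate, to -0.09, -0.07 and -0.19. With that covariate 2 identity genes remained higher at midday, Slc2a2 and Slc30a8, and 1 at midnight.

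Of 30 genes of fatty acid oxidation and lipolysis 7 were higher at midday and 1 at midnight, with a median log2 difference of 0.26. Cpt1a, which carries long-chain fatty acids toward the mitochondrion and is the rate-limiting step, had 16.7, 16.2, 23.3 and 16.3 RPKM at midday and 7.85, 7.83, 6.74 and 7.66 RPKM at midnight. The lowest midday library was above the highest midnight library by a wide margin, and the level was 2.38-fold higher (log2 difference 1.25, SE 0.12, adjusted p = 0.0011).

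Genes of later steps were also called. Slc25a20, the carnitine carrier of the inner membrane, had 12.9, 17.7, 19.1 and 15.4 RPKM at midday and 8.13, 7.02, 8.67 and 8.6 RPKM at midnight (1.98-fold, adjusted p = 0.0065). Acaa2, the thiolase of the last step, had 19.3, 22.3, 28.3 and 25 RPKM at midday and 9.88, 10.6, 12.5 and 12.3 RPKM at midnight (2.08-fold, adjusted p = 8.3e-04). Hadh, a beta-oxidation dehydrogenase that is abundant in beta cells, Acads, the short-chain acyl-CoA dehydrogenase, and Etfa, an electron carrier, were 1.38-fold, 1.31-fold and 1.26-fold higher at midday. Lpl, lipoprotein lipase, was 1.68-fold higher at midday, all of it between ZT4 and ZT16 (log2 difference 1.49), with 0.003 between ZT8 and ZT20. Ppard, a nuclear receptor for fatty acids, was the exception, at 1.94, 2.49, 1.91 and 1.6 RPKM at midday and 4.51, 4.46, 3.18 and 3.19 RPKM at midnight (1.91-fold, adjusted p = 0.021). With the nuclear RNA covariate 3 genes were called at midday and 1 at midnight, and leaving out single libraries left 3 to 7 at midday.

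Of 27 genes of cholesterol synthesis and uptake 7 were higher at midnight and none at midday, with a median log2 difference of -0.28. Lss, which closes the sterol rings, had 4.96, 4.65, 4.66 and 4.58 RPKM at midday and 8.27, 9.06, 7.78 and 8.78 RPKM at midnight (1.79-fold, adjusted p = 0.005). Its groups were tight and apart. Mvd and Pmvk of the mevalonate path were 1.62-fold and 1.68-fold higher at midnight, Dhcr7, the last reductase, 1.49-fold, and Srebf2, the master activator of the path, 1.48-fold. With the covariate 4 were called and the median was -0.47, and without single libraries 2 to 6 were called.

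Of 24 genes of fatty acid and glycerolipid synthesis 4 were higher at midnight and 2 at midday. Mlxipl (ChREBP), the glucose-responsive activator of lipogenesis, had 33, 20.1, 21.9 and 25.6 RPKM at midday and 73.8, 70.8, 36.1 and 50.8 RPKM at midnight (2.25-fold, adjusted p = 0.044). Acly, which makes cytosolic acetyl-CoA from citrate, and the elongase Elovl6 were 1.38-fold and 1.42-fold higher at midnight. Dgat2, which makes triglyceride, and the elongase Elovl5 were higher at midday, by 2.08-fold and 1.41-fold. Mlxipl was lost without each library but replicate 1 of ZT4 and with the covariate. With the covariate 2 genes of this list were called at midnight and none at midday.

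**Figure D3:**
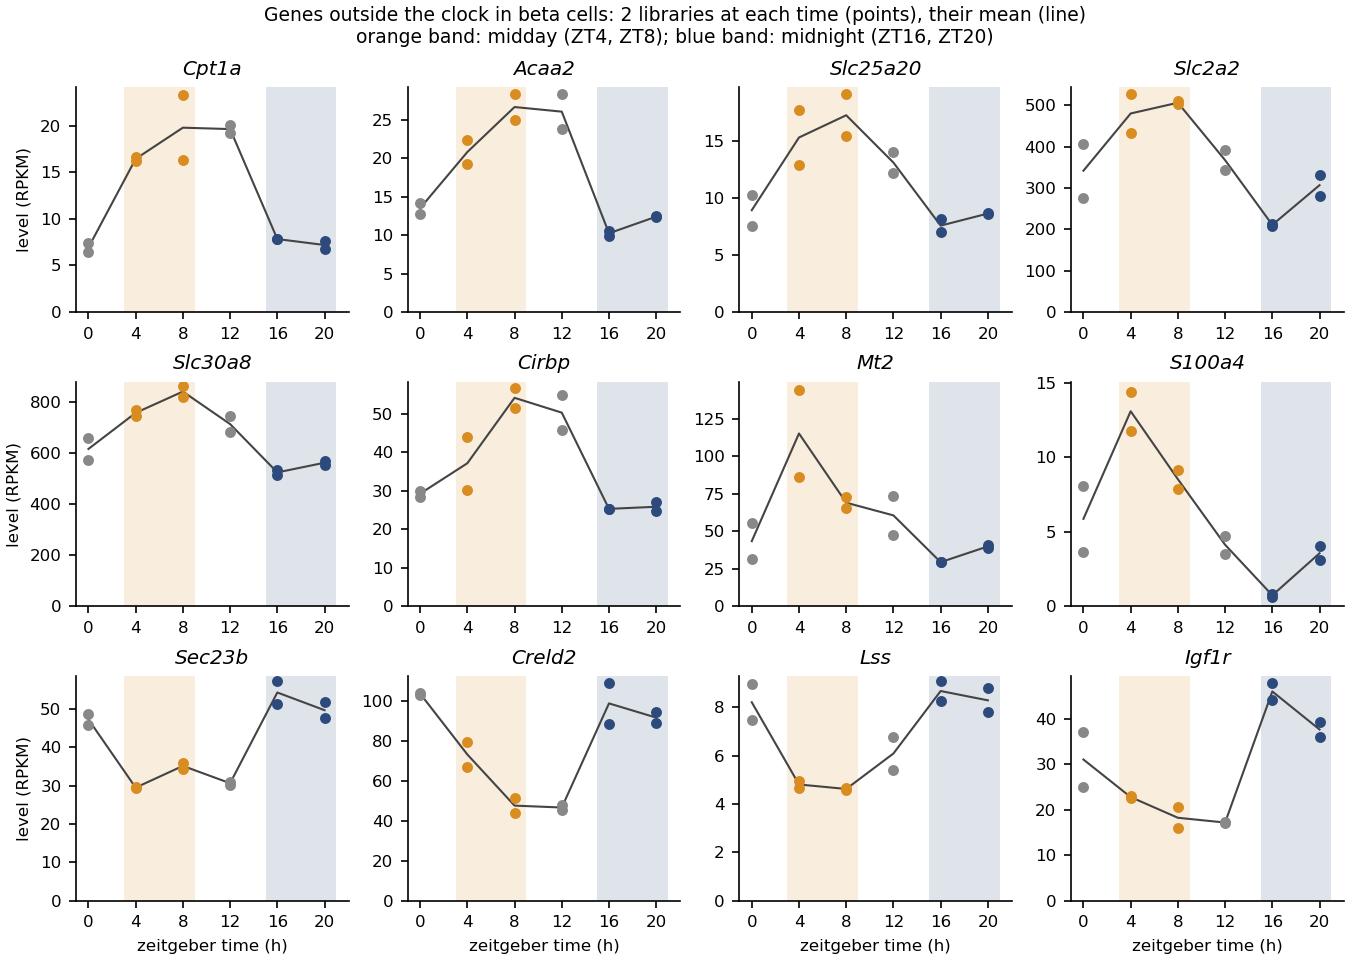
Level in RPKM (vertical axes from 0) of 12 genes outside the clock in beta cells against zeitgeber time in hours, with 2 libraries at each time as points and their mean as a line. Cpt1a, Acaa2, Slc25a20, Slc2a2, Slc30a8, Cirbp, Mt2 and S100a4 are higher in the orange midday band, and Sec23b, Creld2, Lss and Igf1r in the blue midnight band, where Lss lies between 7.78 and 9.06 RPKM against 4.58 to 4.96 RPKM at midday.

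Among 35 unfolded protein response genes 9 were higher at midnight and none at midday, with a median log2 difference of -0.25. Hspa5, the main chaperone BiP, had 525, 506, 543 and 619 RPKM at midday and 722, 833, 730 and 786 RPKM at midnight. The groups did not overlap (1.4-fold, adjusted p = 0.024). Creld2, a secreted stress target, had 66.9, 79.3, 43.7 and 51.4 RPKM at midday and 88.2, 109, 88.8 and 94.2 RPKM at midnight (1.61-fold, adjusted p = 0.0073). Atf6b, a stress sensor, Wfs1, the wolframin protein lost in a form of diabetes, Dnajb11, a BiP cochaperone, and Eif2ak3, the kinase PERK, were 1.71-fold, 1.49-fold, 1.48-fold and 1.41-fold higher at midnight. Ddit3, Atf4 and Trib3 were not called, with log2 differences of -0.24, 0.02 and 0.35.

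Of 55 genes of translocation and the early secretory pathway 13 were higher at midnight and none at midday, with a median log2 difference of -0.13. Sec23b, a coat subunit of the vesicles that leave the endoplasmic reticulum, had 29.4, 29.5, 35.9 and 34.3 RPKM at midday and 51.3, 57.1, 47.5 and 51.7 RPKM at midnight (1.61-fold, log2 difference -0.69, SE 0.08, adjusted p = 0.0032). Sec24a, Sec24b, Sec24c, Sec24d and Sec31a of the same coat were also called. Its other members Sec23a (log2 difference -0.12), Sec13 (-0.11), Sar1a (-0.02) and Sar1b (0.16) were not called. Srp68, of the signal recognition particle, Copg1, of the retrograde coat, and Tmed9, a cargo receptor, were 1.5-fold, 1.4-fold and 1.41-fold higher at midnight. Sec61a1, the translocation channel, was 1.28-fold higher. With the nuclear RNA covariate 12 genes of the unfolded protein response and 20 of the secretory pathway were called at midnight, more than without it. Leaving out single libraries left 3 to 9 and 1 to 11.

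Of 29 exocytosis genes 6 were higher at midnight and none at midday, with a median log2 difference of -0.24. Unc13b and Unc13a, which prime granules, were 1.75-fold and 1.81-fold higher at midnight, Syt4 and Syt5, of the synaptotagmin family, 1.47-fold and 1.43-fold, and Snap25, a membrane SNARE, 1.4-fold. Snap25 had 16.2, 13.3, 14.1 and 18.5 RPKM at midday and 25.1, 22.9, 18.8 and 19.9 RPKM at midnight, so its groups nearly met. Vamp2, the granule SNARE, spanned 10.8 to 14.6 RPKM at midday and 18 to 25.7 RPKM at midnight but missed the threshold. With the covariate 2 exocytosis genes were called, Syt4 and Syt5, and without single libraries 0 to 6.

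The 25 glucose sensing and excitability genes held 4 calls at midnight and 2 at midday. The pore subunit Cacna1d of a calcium channel had 18.4, 13.1, 16.9 and 14.7 RPKM at midday and 32, 29.7, 20.4 and 24.3 RPKM at midnight (1.67-fold, adjusted p = 0.038). Its auxiliary subunit Cacnb2 was 1.39-fold and the calcium-activated potassium channel Kcnma1 1.46-fold higher at midnight. Abcc8 and Kcnj11, the subunits of the ATP-sensitive potassium channel, were not called (log2 differences -0.21 and 0.15). None of the 3 channel calls remained with the covariate, which left 1 gene of the list at midday and 0 at midnight. Of 34 receptors and cAMP genes 2 (5.9%) were higher at midday and 1 (2.9%) at midnight, against 5.41% and 6.45% of all genes. The phosphodiesterase Pde1c was 1.55-fold higher at midnight. The kinase subunit Prkacb and the kinase inhibitor Pkib were 1.59-fold and 1.53-fold higher at midday. Glp1r was not called (log2 difference 0.05). With the covariate 1 of the 34 genes was called in each direction.

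Growth signalling differed in a few genes. Of 35 genes of insulin signalling and mTOR 4 were higher at midnight and 1 at midday. Igf1r, the receptor of insulin-like growth factor, had 23.1, 22.5, 20.6 and 15.9 RPKM at midday and 44.2, 47.8, 39.3 and 36 RPKM at midnight, a 2.04-fold difference (log2 difference -1.03, SE 0.13, adjusted p = 0.0047). Insr, the insulin receptor, was not called (log2 difference 0.035). Eif4ebp2, a translation repressor under mTOR, Rptor and Tsc1 were 1.75-fold, 1.51-fold and 1.49-fold higher at midnight, and Igfbp7 was 1.37-fold higher at midday. With the covariate 1 gene of this list was called in each direction. Of 28 cell cycle genes 2 (7.1%) were higher at midnight and 1 (3.6%) at midday, against 6.45% and 5.41% of all genes. With the covariate 2 were called at midnight and 0 at midday. Ccnd1 had 54.4, 52.8, 64.2 and 65.2 RPKM at midday and 93.4, 94.1, 80.4 and 88.8 RPKM at midnight (1.51-fold, adjusted p = 0.0058), and Ccnd3, another D cyclin, was 1.41-fold higher. The proliferation marker Mki67 was not called.

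Of 27 heat shock genes 8 were higher at midnight and none at midday, with a median log2 difference of -0.26. Hsph1, an HSP110 chaperone, had 12.9, 12.3, 5.23 and 10.2 RPKM at midday and 27.3, 29.5, 15 and 25.3 RPKM at midnight (2.44-fold, adjusted p = 0.013). Stip1 and Chordc1, cochaperones of HSP90, and Fkbp4 were 1.61-fold, 1.56-fold and 1.34-fold higher, and Hspa8 and the factor Hsf1 1.47-fold and 1.42-fold. With the covariate 1 gene of the list was called, Fkbp4, and 0 to 7 of the list were called without single libraries. Cirbp, an RNA-binding protein induced by mild cold, had 44.1, 30.3, 56.8 and 51.6 RPKM at midday and 25.3, 25.4, 27.1 and 24.7 RPKM at midnight (1.74-fold higher at midday, adjusted p = 0.0073). Its relative Rbm3 was not called (log2 difference 0.28).

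Both measured metallothioneins of the glucocorticoid list were higher at midday. Mt2, a metal-binding protein gene on chromosome 8, had 86.4, 144, 72.6 and 65.6 RPKM at midday and 29.7, 29.3, 40.8 and 39.2 RPKM at midnight (2.54-fold, adjusted p = 0.0082). Mt1 beside it was 2.44-fold higher at midday. Klf15 and Fkbp5 of the same list of 17 were 1.58-fold and 1.29-fold higher at midnight. With the covariate 2 of the 17 were called at midday and 0 at midnight. Nqo1, a quinone reductase and target of NRF2, was 2.16-fold higher at midday (adjusted p = 0.0073), and was the 1 called gene of 27 antioxidant genes. With the covariate its call was lost, and the list held 0 calls at midday and 1 at midnight. Of the 31 immediate early genes, which respond to stimulation and handling, 1 was called, Ier5 at 1.3-fold higher at midday. With the covariate 2 were called at midday. The median of that list ran from -0.38 to 0.44 when single libraries were left out.

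Of 72 cytosolic ribosomal protein genes 70 had a positive difference, with a median log2 difference of 0.38, but 2 were called, Rps10 and Rpl15. Of 78 nuclear-encoded respiratory chain genes 72 were positive, with a median of 0.25 and 4 called at midday (5.1%, against 5.41% of all genes). With the nuclear RNA covariate the medians were -0.06 and -0.17, with 0 ribosomal genes called and 1 respiratory gene at midday against 4 at midnight. The calls also moved with single libraries, from 0 to 20 ribosomal and from 1 to 7 respiratory genes at midday, with 20 and 7 reached without replicate 1 of ZT4. Gene length moved the same way: the median log2 difference of all genes fell from 0.17 in the shortest 2806 genes to -0.13 in the longest 2806. With the length trend removed 776 and 906 genes were called, 1396 of them among the 1664. Nuclear RNA was tested only as the covariate above, and its part in these shifts beyond that was not tested. Of 78 mitochondrial ribosomal protein genes 4 (5.1%) were higher at midday and 1 (1.3%) at midnight, with a median of 0.14. With the covariate 0 and 1 were called and the median was -0.07, and without single libraries 0 to 7 were called at midday. Of 10 nuclear long noncoding RNAs 3 were higher at midnight, Neat1, Snhg11 and Rian, and all 10 had a negative difference, with a median of -1.05. With the covariate, which 3 of these RNAs make up, 0 were called and the median was -0.16. Without single libraries 0 to 6 were called, with 6 reached without replicate 1 of ZT4.

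Some called members of these lists had groups that lay apart. Cox6a2, a tissue-restricted subunit of cytochrome oxidase, had 121, 124, 92.6 and 132 RPKM at midday and 40.4, 44.8, 72.4 and 71.4 RPKM at midnight (2.1-fold, adjusted p = 0.0055), and its call remained with the covariate. Eif4b, a helicase cofactor of translation initiation, was 1.5-fold higher at midday, with 79.4 to 87.7 RPKM against 52.6 to 57.5 RPKM. Eif3b was 1.49-fold higher at midnight, and of 67 translation factor entries 3 were higher at midday and 8 at midnight (1 and 1 with the covariate). Of 20 tRNA synthetases 4 were higher at midnight, among them Wars and Vars at 1.35-fold and 1.34-fold, and 2 with the covariate.

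In central carbon metabolism the midnight calls lay near the share of all genes, 6.45%. Of 30 glycolysis genes 2 (6.7%) were higher at midnight, among them Pgk1 at 1.35-fold, and none at midday. Of 26 genes of the tricarboxylic acid cycle 2 (7.7%) were higher at midnight and 1 (3.8%) at midday. With the covariate 1 glycolysis gene was called at midnight, and 3 genes of the cycle at midnight and 0 at midday. Fh1, fumarase, had 17.4, 18.7, 23.1 and 25.1 RPKM at midday and 47.2, 49.2, 46.2 and 31.7 RPKM at midnight. Its groups did not overlap, and the level was 2.06-fold higher at midnight (log2 difference -1.04, SE 0.14, adjusted p = 0.0055). Suclg2 and Suclg1, subunits of succinate-CoA ligases, went opposite ways, 1.41-fold higher at midday and 1.27-fold higher at midnight.

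Of 24 cytoskeleton genes 5 were higher at midnight, with the tubulins Tubb2b, Tubb2a and Tubb5 at 2.68-fold, 1.52-fold and 1.39-fold, and 4 with the covariate. Of 46 lysosome and autophagy genes 3 (6.5%) were higher at midday, among them Bnip3 and Gabarapl1 at 1.59-fold and 1.55-fold. The 1 higher at midnight (2.2%) was Wipi1, which marks forming autophagosomes, at 1.62-fold. With the covariate 0 were called at midday and 2 at midnight. Of 26 genes of the amino acid response 2 (7.7%) were higher at midday and 1 (3.8%) at midnight. The 2 at midday, Nupr1 and Phgdh, had high values at ZT4 alone: Nupr1 had 22.4, 41.5, 13.8 and 9.97 RPKM against 11.6, 7.5, 10.1 and 12.2 RPKM at midnight. None of that list was called with the covariate. Of 37 proteasome genes 2 (5.4%) were higher at midnight, and 1 with the covariate. Of 75 splicing factors 4 (5.3%) were higher at midnight and 1 (1.3%) at midday, against 6.45% and 5.41% of all genes. Among the 4, Tra2a was 2.05-fold and Srsf1 1.39-fold higher at midnight. With the covariate 0 splicing factors were called at midnight and 1 at midday. Without single libraries 0 to 14 were called at midnight, with 14 reached without replicate 1 of ZT4.

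**Figure D4:**
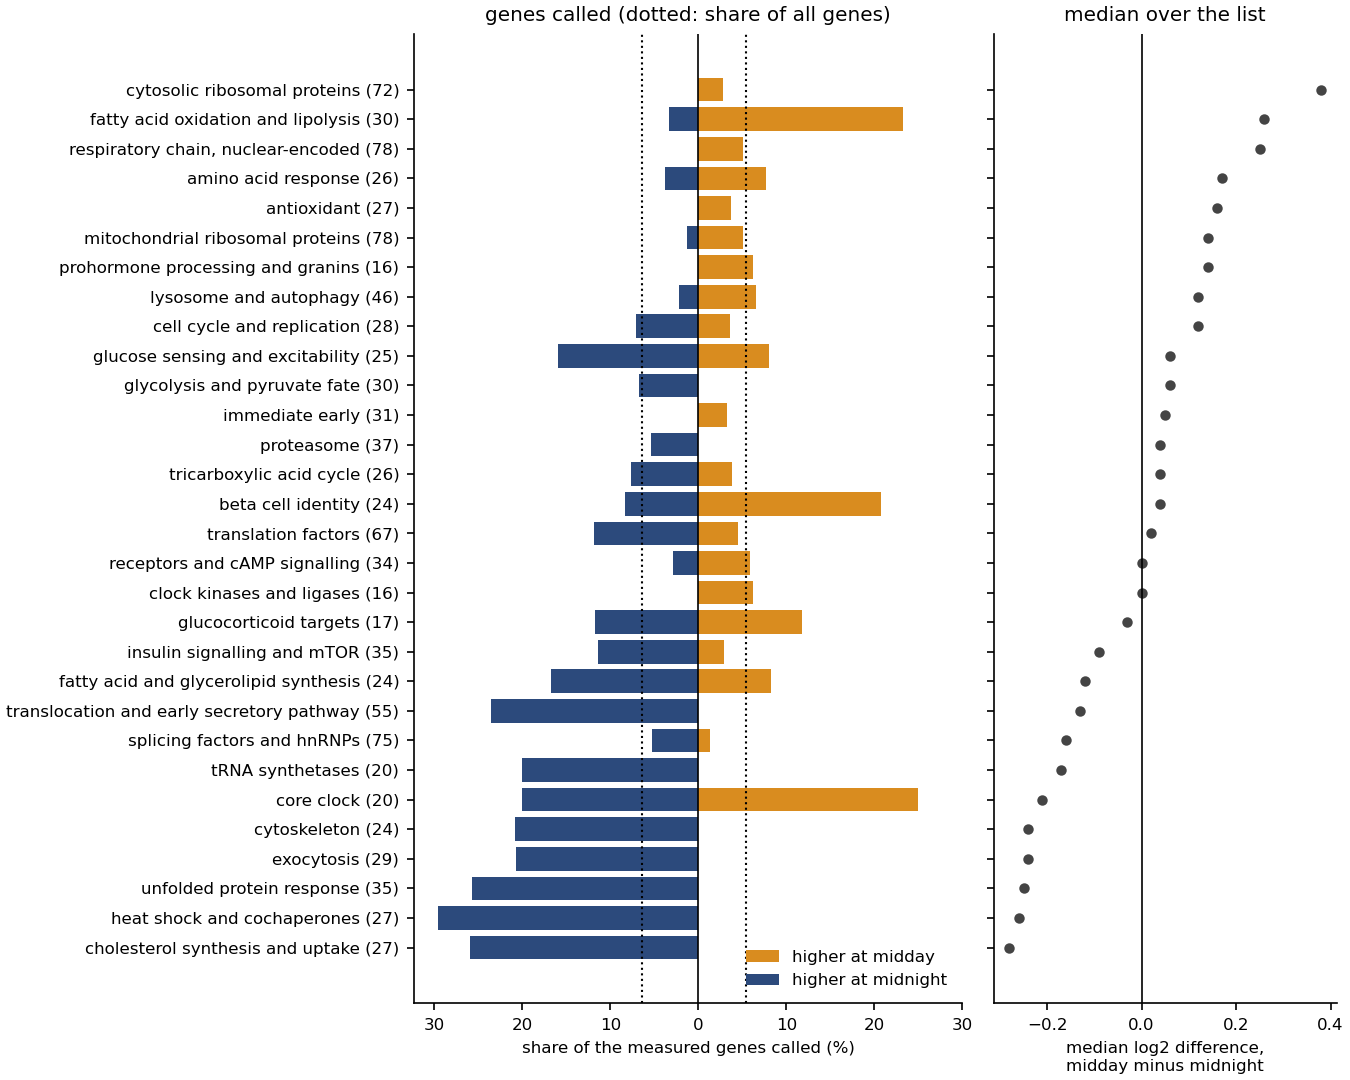
For each gene list (number of measured genes in brackets), the share of its genes (%) called higher at midday (orange, right) or midnight (blue, left), and the median log2 difference. Dotted lines give the shares over all genes, 5.41% and 6.45%. Cholesterol synthesis, heat shock and the unfolded protein response have midnight bars only, and the core clock has long bars on both sides.

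The largest differences that met the naming rule included genes of no list. S100a4, a calcium-binding protein, had 11.8, 14.4, 9.19 and 7.89 RPKM at midday and 0.65, 0.846, 3.09 and 4.05 RPKM at midnight (5.33-fold, log2 difference 2.41, SE 0.22, adjusted p = 9.5e-04). S100a6, a relative in the same cluster on chromosome 3, had 4.88, 7.32, 15.5 and 9.74 RPKM at midday and 1.33, 1.11, 1.78 and 2.55 RPKM at midnight (4.7-fold, adjusted p = 0.015). Both were low at ZT16. S100a4 overlaps the gene Gm42674 on the same strand, which has no entry among the deposited genes, so their reads were not told apart. Spon2, a secreted matrix protein, had 14.6, 16.2, 14.6 and 16.5 RPKM at midday and 4.05, 3.2, 6.05 and 4.63 RPKM at midnight (3.49-fold, adjusted p = 3.5e-04). The midday libraries lay close together and far from those of midnight. Serpina7, Zdhhc22 and Prss23 followed at 3.6-fold, 3.46-fold and 3.03-fold higher at midday.

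At midnight the largest under that rule was Pde10a, a cyclic nucleotide phosphodiesterase, with 2.12, 1.21, 2.26 and 2.77 RPKM at midday and 14, 16.5, 7.27 and 8.47 RPKM at midnight (5.44-fold, log2 difference -2.44, SE 0.27, adjusted p = 0.0028). Fmo2, a flavin monooxygenase, had 2.02, 0.87, 0.626 and 0.8 RPKM at midday and 6.45, 4.62, 4.48 and 5.08 RPKM at midnight (5.11-fold, adjusted p = 0.0026). Both remained called with the covariate. Col20a1, Olfr1322, Larp1b and the pseudogene Fth-ps2 were 5.03-fold, 4.97-fold, 4.05-fold and 3.83-fold higher at midnight. Neat1, at 4.23-fold, is part of the covariate itself, and Mir1906-1, at 4.48-fold, lies inside Meg3 on the same strand, so their reads cannot be told apart. Fth-ps2 lies inside Braf on the same strand.

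The 2 pairs of times 12 h apart did not contribute equally. Between ZT4 and ZT16, 687 genes were called (4.9% of all genes), 2.14% higher at ZT4 and 2.76% higher at ZT16. Between ZT8 and ZT20 it was 35 genes (0.25%), 0.164% higher at ZT8 and 0.0855% higher at ZT20. The first count was 8 without replicate 1 of ZT16, 0 without replicate 2 of ZT16 and 27 without replicate 2 of ZT4. It was 303 without either ZT8 library, and 398 and 413 without replicates 1 and 2 of ZT20. The second was 7 and 12 without replicates 1 and 2 of ZT8, 14 without either ZT16 library, and 9 and 10 without replicates 1 and 2 of ZT20. With the nuclear RNA covariate the 2 counts were much closer, 389 between ZT4 and ZT16 and 261 between ZT8 and ZT20. Of the 1664 called genes 1651 had the same sign in both pairs, against 73.4% of all genes. The call rests on the mean of these 2 differences, so a shared sign is partly fixed by the call and is no separate support. The 35 genes included Dbp, Nr1d2, Nr1d1, Cry1, Arntl, Nfil3, Tef, Cpt1a, Acaa2, Spon2, Fmo2, Creld2 and Cirbp.

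A test of the difference between the pairs, added after seeing the data, called 9 genes (0.0642%, of which 0.0428% positive and 0.0214% negative). Of the named genes they were Dbp, Nr1d2, Arntl, Npas2 and Tef. Dbp had log2 differences of 0.34 between ZT4 and ZT16 and 3.28 between ZT8 and ZT20, and Nr1d2 0.35 and 2.33. All 5 are core clock genes, which the rule names whatever their result, so these 5 do not stand for the 9. The count was 3 or 4 without 1 library of ZT8, ZT16 or ZT20 or without replicate 2 of ZT4. Within midday, 4 genes differed between ZT8 and ZT4 (0.0285%), Dbp and Tef higher at ZT8 (0.0143%) and Arntl and Ovol2 higher at ZT4 (0.0143%). That count was 0 without replicate 1 of ZT8 or replicate 2 of ZT4, 8 without replicate 1 of ZT4, and 2 without any of the midnight libraries. Between ZT20 and ZT16 limma called 0 genes (0%), with 692 at an unadjusted p under 0.05.

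**Figure D5:**
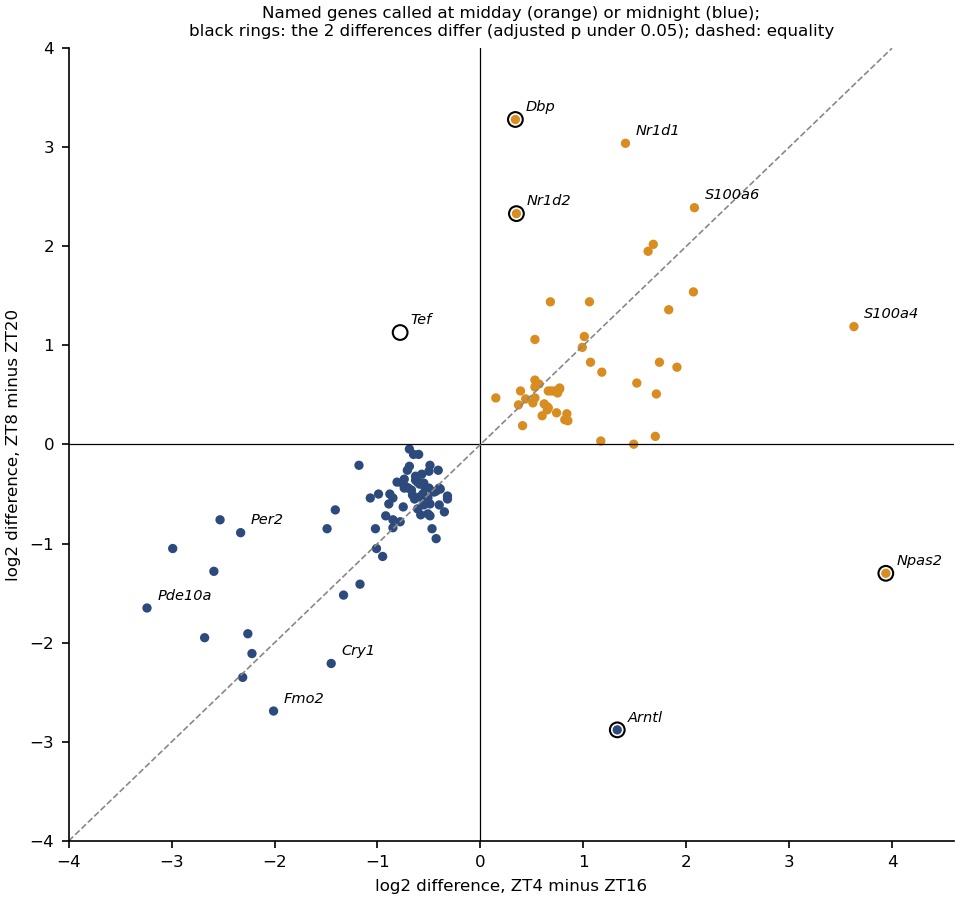
Log2 difference between ZT8 and ZT20 (vertical) against that between ZT4 and ZT16 (horizontal) for the called named genes, orange if higher at midday and blue if higher at midnight, with rings where the 2 differences differ at an adjusted p under 0.05. Arntl (1.33 and -2.88) and Npas2 (3.94 and -1.30) lie in the lower right, Tef, itself not called, in the upper left, and most other genes in the 2 quadrants of equal sign.

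Alpha cells gave a second cell type for the same contrast. The midday minus midnight difference itself differed between beta and alpha cells for 37 genes (0.264%), 11 with a higher value in beta cells (0.0784%) and 26 with a lower value (0.185%). This count was 18 without replicate 1 of ZT4 or of ZT8, 14 and 13 without their replicates 2, 8 and 1 without replicates 1 and 2 of ZT16, and 12 and 8 without replicates 1 and 2 of ZT20. From differences between same-numbered libraries, which deviated together at some times, it was 13. The adjusted p below come from the fit that treats these libraries as independent. In alpha cells, fitted with all 24 libraries, 2254 genes differed between midday and midnight (16.1%), 8.88% of all genes toward midday and 7.19% toward midnight. That count is not to be set against the 1664 beta cell genes, which come from the 12 beta libraries. With all 24 libraries in the fit, 1336 beta cell genes were higher at midday and 1625 at midnight.

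Clock genes were among the 37, and Dbp and Nr1d2 had a wider difference in beta cells. Dbp had 5.08, 4.47, 16.1 and 12.8 RPKM at midday and 7.26, 7.95, 3.24 and 4.3 RPKM at midnight in alpha cells, a log2 difference of 0.63 against 1.81 in beta cells (difference 1.18, adjusted p = 0.0094). Nr1d2 showed 0.55 in alpha and 1.34 in beta cells (adjusted p = 0.033). Arntl had opposite signs, 0.66 in alpha and -0.78 in beta cells (adjusted p = 0.027). Its alpha levels at ZT8 were 5.97 and 5.73 RPKM where beta cells had 0.863 and 1.63 RPKM.

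S100a4 was at 0.136 to 0.782 RPKM at midday and 0.443 to 1.08 RPKM at midnight in alpha cells, where beta cells had 7.89 to 14.4 RPKM at midday (difference of the log2 differences 2.94, adjusted p = 0.019). Spon2 had more reads per length in alpha cells, at 38 to 51 RPKM at midday and 23.1 to 30.1 RPKM at midnight, with a smaller log2 difference of 0.68 (adjusted p = 0.019). Fh1 and Sec23b had log2 differences of 0.07 and -0.07 in alpha cells (adjusted p = 0.019 and 0.046 for the difference from beta cells). Ffar1, the free fatty acid receptor GPR40, had 36.5 to 64.3 RPKM at midday and 51.1 to 58.4 RPKM at midnight in beta cells and 10.7 to 13.6 against 5.77 to 8.38 RPKM in alpha cells (difference -0.91, adjusted p = 0.0094). Tnpo2, a nuclear import receptor, and Rhou, a small GTPase, were higher at midnight in beta cells by -0.45 and -0.34, the latter not called, and positive in alpha cells by 0.31 and 0.27 (adjusted p = 0.0094 and 0.019).

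In 9 lists for alpha, delta, PP, acinar, duct, endothelial, immune, stromal and glial cells 0 genes were called by limma. With the nuclear RNA covariate 2 alpha cell markers were called at midday, and the median of that list was 0.84 against 0.19 without it. A delta cell marker was called at midday without replicate 1 of ZT20, a PP cell marker at midday without replicate 2 of ZT4, and a glial marker at midnight without replicate 1 of ZT4. The summed level of 10 alpha cell markers was 696 to 2520 RPKM at midday and 602 to 817 RPKM at midnight. Ttr made up much of it, at 509 to 641 RPKM at midday and 445 to 484 RPKM at midnight, so the sum does not measure alpha cell carry-over. Replicate 1 of ZT4 held 1910 RPKM of Gcg and 1260 RPKM of Ppy. The 5 delta cell markers summed to 1240 to 1420 and 645 to 1330 RPKM, and the 15 acinar markers to 56 to 503 and 166 to 490 RPKM. The 3 PP cell markers summed to 427 to 1730 RPKM at midday and 359 to 610 RPKM at midnight. Duct markers summed to at most 47.1 RPKM and immune markers to at most 16 RPKM. Endothelial markers summed to at most 4.15 RPKM, stromal to at most 1.44 and glial to at most 0.894 RPKM. Without replicate 1 of ZT4 more genes were called, as given above, and Slc2a2, Cpt1a, Cry1 and Sec23b remained called.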

How the data were processed

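Per the labels' protocols, total RNA was extracted on microscale columns, and sequencing libraries were made with a stranded kit after ribosomal RNA removal. The submitters' processing notes name STAR, edgeR and the build mm10. For versions, gene annotation, strand setting and gene filter, nothing is stated: not given in the sources used here.

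Values on a log2 scale were deposited by the authors. Their steps fit log2 RPKM plus a prior count with a mean of 2.00. Whole reads were recovered from their steps for all 14027 genes (largest deviation 7.9e-08). RPKM means, SD and per-library levels came from these reads without the prior count, which makes log2 differences understate the change of low genes.

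Tests used limma 3.58.1 in R 4.3.3 on the deposited values of the 12 beta libraries, with time as a factor of 6 levels, robust estimation and a mean-variance trend. The contrast was the mean of ZT4 and ZT8 minus the mean of ZT16 and ZT20. Cell types were compared over all 24 libraries. Benjamini-Hochberg adjustment ran across the 14027 genes. Folds are 2 to the power of the fitted log2 difference. No further filter was added. Alternatives covered the libraries fitted, the pseudocount, a level filter, equal medians, voom on the whole reads, a replicate block and leaving out each library, and, chosen after seeing the data, the nuclear RNA covariate, removal of the length trend and the test between the 12 h pairs.

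The comparison, the gene lists, the naming rule and the alternatives were chosen with earlier results of these data known. Named were the 8 largest called differences toward midday and toward midnight, with at least 1 RPKM in the higher group and no overlap (predicted genes left out), all core clock genes, up to 4 called genes per direction of every other list or up to 2 uncalled ones, the islet hormones, and the 6 lowest p of the difference between cell types. Other list members, Ovol2 and the genes of the ZT8 to ZT20 count were named after their values were seen. Genes can belong to several lists, and the translation list holds entries matched by symbol pattern, such as Eif2ak3 and Eef1akmt3.

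Of the identifiers 13802 matched the GENCODE annotation of GRCm38, 12399 with the same symbol, and current symbols are printed. Promoters are RefSeq entries of GRCm38.p6, found for 10229 genes. Those printed have the lowest p among core clock genes and the largest differences, Spon2 aside. Some genes that the rules chose are not reported here and were left out of the named genes with no replacement, while tests and list counts include them. On simulated reads of the 14027 genes the test recovered 76.1% of 67 genes changed 1.5-fold, 100% of 67 changed 2-fold and 100% of 66 changed 4-fold, with 6 false calls. The simulation gave every gene the same dispersion (0.0113), changed only well-covered genes and held no shift shared by the genes of a library. It checks the code and does not measure power or false calls in these libraries. Replicates of each time differed by more than sampling noise (chi-square per gene 2.57 to 48.80), so each library was counted.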

Additional observations from a re-analysis of the deposited data

Results flagged for a closer look

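Of 316 groups of 4 libraries tested, 13 had a library far from the other 3 of its group (4.1%), and chance flags about 1 in 20. Replicate 1 of ZT4 stood high for Gcg (1910 RPKM) and Ppy (1260 RPKM), the hormones of alpha and PP cells. Replicate 1 of ZT20 stood high among midnight libraries for Ins1 (91800 RPKM) and Ins2 (197000 RPKM). Replicate 1 of ZT8 stood high for Cpt1a (23.3 RPKM), Spp1 (19.2 RPKM) and Rgs5 (0.508 RPKM), and replicate 2 of ZT8 low for Kcnma1 (11.1 RPKM) and Rnase1 (1.63 RPKM). Replicate 2 of ZT4 was low for Snhg11 (0.469 RPKM). Replicate 2 of ZT16 was high for Vars (19.3 RPKM) and Cdh19 (0.0325 RPKM) and had no read of Col1a1 (0 RPKM).

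The midday minus midnight difference differed between beta and alpha cells, as beta minus alpha on the log2 scale, for S100a4 (2.94), Dbp (1.18), Spon2 (1.12) and Nr1d2 (0.79) upward. It differed downward for Arntl (-1.44), Fh1 (-1.11), Ffar1 (-0.91), Tnpo2 (-0.75), Rhou (-0.61) and Sec23b (-0.61). Adjusted p in limma ran from 0.0094 to 0.046.

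Within beta cells the difference between ZT4 and ZT16 exceeded that between ZT8 and ZT20 for Npas2 (5.25) and Arntl (4.21). It lay below for Dbp (-2.94), Nr1d2 (-1.98) and Tef (-1.91), with adjusted p from 0.0036 to 0.034.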

How the results depend on the processing

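No gene called between midday and midnight was called in the opposite direction under any of the 20 alternatives, but the counts moved. Genes higher at midday and midnight numbered 1327 and 1621 with the 8 libraries alone, 1336 and 1625 with all 24, and 1394 at midnight with 2 groups of 4. With the nuclear RNA covariate they numbered 199 and 309. They ranged from 110 to 985 and from 99 to 1249 when single libraries were left out. Fewer samples enter those fits, and the cause was not tested further. Equal library medians gave 877 and 713.

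Between ZT4 and ZT16 the count was 1718 with the 8 libraries alone, 1676 with all 24, 421 without trend and robust estimation, 389 with the covariate and 0 to 544 without single libraries. Between ZT8 and ZT20 it was 155, 196, 10, 261 and 7 to 30. Between ZT8 and ZT4 it was 38 with all 24, 2 without trend, 99 with the covariate and 0 to 8 without single libraries, and between ZT20 and ZT16 4 with all 24 and 6 with the covariate. The test of the difference between pairs called 18 with all 24, 37 with the covariate, 14 with the trend with gene length removed and 3 to 11 without single libraries. The difference between cell types called 74 on log2(RPKM + 1), 21 with equal medians, 335 with the covariate and 1 to 18 without single libraries.

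Replicate numbers did not pair the beta libraries across times: the correlations of replicate differences ran from -0.45 to 0.35. Between beta and alpha libraries of a time they were 0.53 at ZT4, 0.44 at ZT8, 0.15 at ZT16 and 0.03 at ZT20, so same-numbered libraries deviated together at some times, and the 37 genes come from a fit that treats them as independent. With the replicate number as a block (replicate block) the counts were 521 and 618, 358 between ZT4 and ZT16, 26 between ZT8 and ZT20, 2 between ZT8 and ZT4, 4 for the difference between pairs and, from differences between same-numbered libraries, 13 for that between cell types.

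Uncalled genes that changed sign with the covariate were Ins1 (-0.09), Ins2 (-0.07), Iapp (-0.19), Per1 (0.09), Per3 (0.72) and Clock (-0.07). Without single libraries Gcg ran from -0.77 to 1.16, Clock from -0.03 to 0.03, Bhlhe41 from -0.01 to 0.15, Rnase1 from -0.84 to 0.31, Pnliprp1 from -0.91 to 0.36 and Lyz2 from -0.97 to 0.20. The lone library left at a time is assumed to vary like the other times.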
